A study of Mus musculus with 223 samples.

Results

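Zfp655, Zfp606, Tox3 and Tbpl1 are 4 of the 43629 genes counted in single Htr3a-GFP+ cortical interneurons (INs) of the mouse. They were chosen as leading transcriptional regulators of type 1 INs at postnatal day 5 (P5), from their level and from the share of cells that held them in that type. The contrast between type 1 and the other P5 INs therefore selected them, and its values are given below as a description. Their levels at E18 and at P2 were not used in the choice. Those in the other P5 types were used, as the other side of that contrast.

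Cells came from the whole cortex of C57BL/6 mice of both sexes that express enhanced GFP under Htr3a regulatory sequences, a reporter that labels mainly INs born in the caudal ganglionic eminence. At each age several embryos or pups were pooled, GFP+ cells were sorted by fluorescence, and single cells were captured on a microfluidic C1 chip, where their polyA RNA was amplified. All groups carry the same transgene and none was treated. P5 cortices were dissociated in another solution and at another temperature than E18 and P2 cortices. This step therefore cannot be told apart from the change from P2 to P5 or from that from E18 to P5. The labels give no type to the 82 E18 cells. They divide the 66 P2 cells into 22, 31 and 13 of types 1, 2 and 3, and the 75 P5 cells into 34, 19 and 22. The study drew these types from the expression of the same cells, so comparisons between types are descriptions throughout. The methods describe each age as pooled animals, on more than 1 chip at E18 and P5, and the labels name neither the animal nor the chip of a cell. Cells are not replicates, each age was taken as 1 sample, and no test was made.

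Levels are given as RPM, the read pairs counted on a gene per 1000000 mapped read pairs of the cell. A pooled RPM is the summed count of a group over its summed mapped read pairs, with an exact 95% Poisson interval in brackets. A cell was taken to hold a gene above 10 RPM, and the share of such cells has an exact 95% binomial interval. Read pairs are amplified copies, and molecular identifiers are not mentioned in the sources used here, so the intervals cover counting error only. Mapped read pairs per cell ranged from 3707601 to 15840130 with a median of 9463033. At least 3 of 6 interneuron markers (Dlx1, Dlx2, Dlx5, Dlx6, Gad1, Gad2) passed 10 RPM in 61 of 82 E18 cells, and in P5 types 1 to 3 the cells were 32 of 34, 17 of 19 and 17 of 22. At P2 they were 14 of 22, 14 of 31 and 7 of 13. The median number of genes above 10 RPM per cell was 2258 in P5 type 1, 2738 in type 2 and 2102 in type 3, 1834, 2482 and 1437 in P2 types 1 to 3, and 2496 at E18.

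The 4 genes act at different steps of transcription. Zfp655 and Zfp606 encode zinc finger proteins, a large family in which many members carry a KRAB domain and recruit the corepressor Trim28, which in turn brings histone and DNA modifying enzymes to silence their targets. Tox3 belongs to the TOX family of high mobility group box proteins, which bend DNA, and it is known to work with CREB and its coactivator Crebbp in calcium-dependent transcription in neurons. Tbpl1 is a relative of the TATA-binding protein Tbp that does not recognise the TATA box, binds the general factor TFIIA and is best known for its need in sperm formation.

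Zfp655 lies on the plus strand at chr5:145231715-145247302, Zfp606 on the plus strand at chr7:12478293-12496235, Tox3 on the minus strand at chr8:90247040-90348343 and Tbpl1 on the minus strand at chr10:22703879-22731938 (GRCm38). Tbpl1 was the only member whose span overlapped other annotated genes. Its end overlaps Slc2a12 on the opposite strand over a span that holds 407 exonic bases of Tbpl1, and Mir7663 lies within an intron. Whether counting used strand was not given in the sources used here, so reads of Tbpl1 and Slc2a12 there cannot be told apart. Slc2a12 received 145 read pairs in all P5 type 1 cells together, against 26520 for Tbpl1.

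The promoters of the 4 genes are shown because the genes shared a P5 pattern from 4 different chromosomes. Each sequence is 100 bases from the RefSeq promoter table (GRCm38.p6), 5′ to 3′ on the strand of the gene, and stops before the annotated exon at the RefSeq start, or 2 bases inside it for Zfp655. The annotation gives Tbpl1 a further exon upstream of its window, which therefore lies inside the gene span. Capitals mark the ETS core CCGGAAG and the GC box GGGCGG on either strand. The windows are chr5:145231617-145231716, chr7:12478193-12478292, chr8:90348344-90348443 and chr10:22731448-22731547.
Zfp655: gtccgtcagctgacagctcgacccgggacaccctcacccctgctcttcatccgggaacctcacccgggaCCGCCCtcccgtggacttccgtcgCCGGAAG
Zfp606: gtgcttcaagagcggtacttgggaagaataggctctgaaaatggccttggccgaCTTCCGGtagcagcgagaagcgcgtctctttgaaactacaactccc
Tox3: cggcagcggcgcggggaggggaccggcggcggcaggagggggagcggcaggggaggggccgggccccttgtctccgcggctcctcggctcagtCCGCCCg
Tbpl1: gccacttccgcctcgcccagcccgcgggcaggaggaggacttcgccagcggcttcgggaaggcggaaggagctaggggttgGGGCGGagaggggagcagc
Over the full 250 bases before the RefSeq start, both zinc finger genes held 1 match to CCGGAAG, while Tox3 and Tbpl1 held 0, and 6.91% of all 32851 promoters in the table held at least 1. The match began 32 bases before the start in Zfp655, on the plus strand, and 58 bases before it in Zfp606, on the minus strand. GGGCGG, searched on both strands, had 1 match in Zfp655, 1 in Zfp606, 4 in Tox3 (of which a pair overlaps) and 2 in Tbpl1, and 32.7% of promoters held it. None of the 4 held TATAAA on either strand, a motif present in 12.4% of promoters, nor the homeobox core TAATTA, present in 4.84%. TGACAG, the core of the MEIS site, had 1 match each in Zfp655 and Zfp606 and was present in 15.9% of promoters. The share of G and C was 84.4% in Tox3, 65.6% in Tbpl1, 63.2% in Zfp655 and 52.4% in Zfp606, and the median of all promoters was 52.4%. A match is a description of the sequence and no binding was measured.

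At P5 all 4 genes were present in type 1 INs at pooled levels between 66.4 and 163 RPM, and in types 2 and 3 at levels between 0.228 and 19.7 RPM. Per kilobase of exon, Zfp655 had the highest pooled level of the 4 in type 1 and the lowest in type 2. Its RPM over the 34 type 1 cells had a minimum of 0, a median of 9.81 and a maximum of 1452, with a pooled RPM of 163 [162 to 164]. It was above 10 RPM in 17 of 34 cells (50%, 32.4 to 67.6). In type 2 the highest of 19 cells reached 2.46 RPM and 0 of 19 were above 10 RPM, which allows a share of up to 15.8% when 3 cells are taken as the limit of a count of 0, and up to 17.6% by the exact interval. In type 3, 2 of 22 cells (9.09%, 1.12 to 29.2) carried Zfp655 at 134 and 234 RPM, and the pooled level was 19.7 RPM. The second of these cells held 77.3% of the read pairs of type 3.

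Zfp606 had a pooled level of 66.4 RPM [65.5 to 67.3] in P5 type 1. Its cells ranged from 0 to 615 RPM with a median of 0.493, and 13 of 34 (38.2%, 22.2 to 56.4) were above 10 RPM. Of the cells of types 2 and 3, 2 of 19 and 1 of 22 passed 10 RPM, none beyond 29.0 RPM, and pooled levels were 2.69 and 1.47 RPM. Thus 9 type 1 cells were above 50 RPM and no cell of the other types was.

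Tox3 had a pooled level of 88.3 RPM [87.4 to 89.3] in P5 type 1, where cells ranged from 0 to 741 RPM with a median of 0.0417. It was above 10 RPM in 11 of 34 cells (32.4%, 17.4 to 50.5). Among the 4 genes Tox3 had the smallest gap in the share of cells, since 5 of 19 type 2 cells (26.3%) were also above 10 RPM. Type 2 cells reached at most 75.6 RPM, however, and the pooled level was 10.4 RPM there and 6.34 RPM in type 3, where 2 of 22 cells were above 10 RPM. The median RPM of the cells above the threshold was 204 in type 1 and 23 in type 2.

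Tbpl1 had a pooled level of 76.6 RPM [75.7 to 77.6] in P5 type 1, with cells from 0 to 707 RPM and a median of 0.154. Of the type 1 cells, 13 of 34 (38.2%) were beyond 10 RPM, as were 1 of 19 cells of type 2 and 2 of 22 of type 3. Its pooled levels in types 2 and 3 were 2.33 and 12.2 RPM. A single type 3 cell at 233 RPM held 90.6% of the read pairs of that type.

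**Figure D1:**
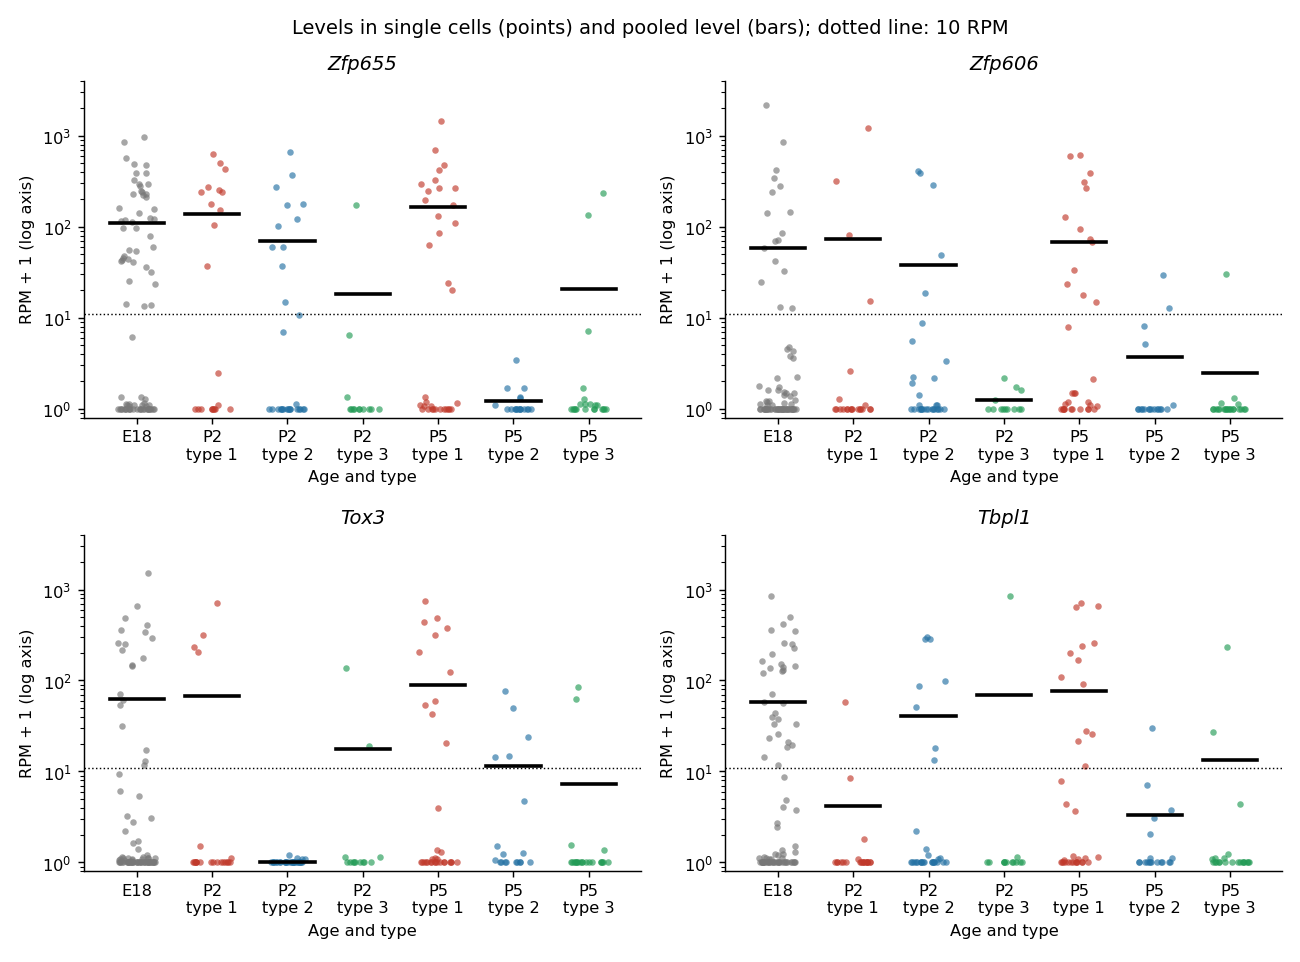
RPM + 1 of each gene in single cells (points, logarithmic axis) by age and type, with the pooled level of the group as a bar and 10 RPM as a dotted line. In P5 type 1 the pooled bars stand between 66.4 and 163 RPM while many cells of the same group lie at 0, and in P5 types 2 and 3 the points above the line number from 0 (Zfp655 in type 2) to 5 (Tox3 in type 2).

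**Figure D2:**
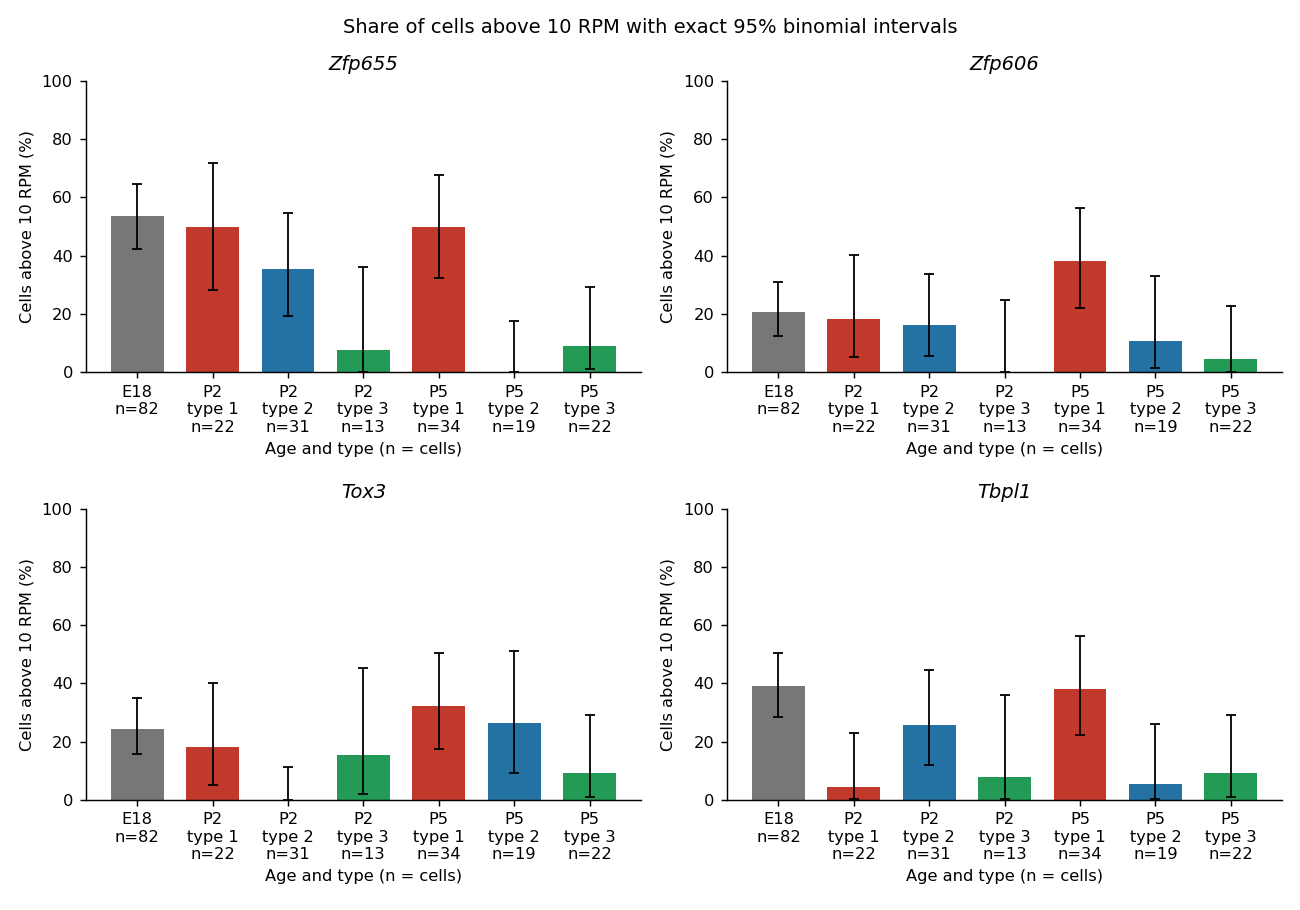
Percentage of cells above 10 RPM (bars) with exact 95% binomial intervals (lines) by age and type, with the number of cells under each bar. Zfp655 was above 10 RPM in 50% of P5 type 1 cells and in 0 of 19 P5 type 2 cells, and Tox3 in 32.4% and 26.3%, with intervals that overlap.

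On the log2 scale with 1 RPM added to both sides, the fold of P5 type 1 over the other types was 4.44 for Zfp606, 3.94 for Zfp655, 3.26 for Tbpl1 and 3.25 for Tox3. All 4 exceeded a log2 fold of 1, as the choice of the genes fixes, and 23.6% of the 9675 genes compared did so. Genes entered these counts when over 5% of the compared cells held them at a level beyond 10 RPM, and all 4 members did in each comparison with a count below. Among 159 transcription factors that at least 25% of P5 type 1 cells held beyond 10 RPM, taken by name from a list of factor families, Zfp606 ranked 1, Zfp655 ranked 2, Tbpl1 ranked 4 and Tox3 ranked 5 by fold. Runx1t1, a corepressor, stood at rank 3 with 3.62 and was not among the chosen genes. The choice has no clear edge, since Pbx3, a TALE homeobox factor, followed at 3.24, Sall1, a zinc finger factor, at 3.07 and Crebl2 at 3.05. Meis2, the homeobox factor by which type 1 is known, had a fold of 2.83 but was above 10 RPM in 33 of 34 type 1 cells, where each of the 4 genes was in 17 or fewer.

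Levels of different genes were compared only per kilobase of exon. In P5 type 1 the order by pooled RPM per kilobase was Zfp655 with 29.1, Tox3 with 26.3, Tbpl1 with 23.4 and Zfp606 with 8.64. The order at E18 was Zfp655 with 19.3, Tox3 with 18.3, Tbpl1 with 17.6 and Zfp606 with 7.45, so it was the same at both ages.

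Before types could be assigned, at E18, all 4 genes were already present. Zfp655 was the most widespread, with a median of 17.9 RPM, a maximum of 973 and 44 of 82 cells (53.7%, 42.3 to 64.7) above 10 RPM, for a pooled level of 108 RPM. Tbpl1 was above 10 RPM in 32 of 82 cells (39%), with a pooled level of 57.7 RPM and a maximum of 838. Tox3 was above 10 RPM in 20 cells (24.4%), with a pooled level of 61.5 RPM and a maximum of 1512. For Zfp606 the count was 17 cells (20.7%), with a pooled level of 57.2 RPM, of which a single cell at 2154 RPM gave 37.6%. The shares at E18 and in P5 type 1 had overlapping intervals for each of the 4 genes.

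Against E18, the log2 fold of P5 type 1 was 0.59 for Zfp655, 0.52 for Tox3, 0.40 for Tbpl1 and 0.21 for Zfp606. None of the 4 passed a log2 fold of 1 in either direction, whereas 13.4% of 9643 genes were higher in P5 type 1 by that measure and 27.8% were lower. In P5 type 2 all 4 were lower than at E18, by a log2 fold of -6.47 for Zfp655, -4.14 for Tbpl1, -3.98 for Zfp606 and -2.46 for Tox3, where 27.5% of 9468 genes were lower. In P5 type 3 all 4 were lower as well, with -4.56 for Zfp606, -3.09 for Tox3, -2.39 for Zfp655 and -2.15 for Tbpl1, and there 49.6% of 9504 genes were lower and the median of all genes was -0.98. These comparisons share the E18 cells, and the dissociation differed between E18 and P5. Low P5 levels in types 2 and 3 are part of what the genes were chosen by. Among the factors of type 1 that the study names, which it chose on these cells, Meis2 had log2 folds against E18 of 3.82, 1.90 and -3.07 in P5 types 1 to 3. Sp8 had 3.52, 1.74 and 0.18, and Etv1 had 2.63, 1.45 and -5.30.

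E18 cells included some with markers of other neurons. At least 3 of the 4 markers of INs from the medial ganglionic eminence (Lhx6, Sst, Nkx2-1, Satb1) were above 10 RPM in 24 of 82 E18 cells and in 0 of 34 P5 type 1 cells, and their summed pooled level was 666 and 53.5 RPM. At least 3 of 6 excitatory neuron markers (Slc17a7, Slc17a6, Neurod1, Neurod2, Neurod6, Tbr1) were above 10 RPM in 11 E18 cells and in 0 P5 cells. Without the 34 E18 cells of either kind, the log2 fold of P5 type 1 against the remaining 48 was 0.97 for Zfp655, 0.022 for Zfp606, 0.14 for Tox3 and 0.11 for Tbpl1. Zfp655 was above 10 RPM in 21 of the 34 cells set aside and in 23 of the 48 kept, and Tbpl1 in 17 and 15. The cells were 7 and 10 for Zfp606 and 6 and 14 for Tox3. Pooled levels were higher in the cells set aside for Zfp655, at 144 against 82.8 RPM, and lower for Zfp606, at 45.7 against 65.4, for Tox3, at 35.2 against 80.1, and for Tbpl1, at 39 against 71 RPM.

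At P2 the 4 genes did not share 1 pattern. Tox3 was above 10 RPM in 4 of 22 type 1 cells (18.2%, 5.19 to 40.3), with RPM from 0 to 702 and a median of 0, and pooled levels were 66.7 RPM in type 1, 0.0164 in type 2 and 16.5 in type 3. In type 2 it was above 10 RPM in 0 of 31 cells, which allows a share of up to 9.68% by the same limit of 3 cells and up to 11.2% by the exact interval. Its log2 fold of type 1 over the other types was 3.89.

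Zfp655 had pooled levels of 138 RPM in P2 type 1, 68.6 in type 2 and 17.4 in type 3. The cells that passed 10 RPM were 11 of 22, 11 of 31 and 1 of 13, with highest cells of 631, 660 and 174 RPM, so types 1 and 2 overlapped through most of their range. The log2 fold of type 1 was 1.24. The 11 cells of P2 type 2 above 10 RPM stand beside 0 of 19 in P5 type 2, where 6 cells held read pairs of Zfp655 at no more than 2.46 RPM.

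Zfp606 had pooled levels of 71.9, 37.1 and 0.252 RPM in P2 types 1 to 3, with 4 of 22, 5 of 31 and 0 of 13 cells above 10 RPM. Its log2 fold of 1.27 rested on 1 type 1 cell at 1229 RPM, which held 74.3% of the read pairs of the group. Without that cell the fold was -0.57, and as a difference in the mean of log2(RPM + 1) over cells it was 0.27.

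Tbpl1 went the other way at P2. It passed 10 RPM in 1 of 22 type 1 cells, at 57.4 RPM, in 8 of 31 type 2 cells (25.8%), with a maximum of 301 RPM, and in 1 of 13 type 3 cells, at 839 RPM. Pooled levels were 3.14, 39.3 and 68.4 RPM, and the level of type 3 came from that single cell. The log2 fold of type 1 was -3.49, -2.97 without the cell at 839 RPM, and -0.99 as a difference in the mean of log2(RPM + 1) over cells. At P2, therefore, 3 of the 4 genes exceeded a log2 fold of 1 in type 1, where 19.4% of 8400 genes did, and of the 3 the call of Zfp606 depended on 1 cell. Zfp655 without its highest type 1 cell stood at 0.996, just under a fold of 1.

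Within type 1, P5 and P2 levels differed by a log2 fold of 0.24 for Zfp655, -0.11 for Zfp606 and 0.40 for Tox3, and by 4.23 for Tbpl1. Against E18, P2 type 1 had a log2 fold of 0.35 for Zfp655, 0.33 for Zfp606 and 0.12 for Tox3. Only Tbpl1 was lower there, with -3.83, in a comparison in which 39.5% of 9241 genes were lower and the median of all genes was -0.53. Within type 2, P5 was lower than P2 by -5.83 for Zfp655, -3.60 for Tbpl1 and -3.37 for Zfp606, and higher by 3.48 for Tox3. Within type 3 the values were 0.17 for Zfp655, 0.98 for Zfp606, -1.26 for Tox3 and -2.39 for Tbpl1, and each of these moved by more than 1 when a single cell was left out. Without the highest P2 cell of each gene, type 3 gave 3.62 for Zfp655, 1.12 for Zfp606, 1.50 for Tox3 and 3.71 for Tbpl1, so that Tox3 and Tbpl1 changed sign. Without the highest P5 cell it gave -1.67, -0.28, -2.39 and -4.97 in that order, and here Zfp655 and Zfp606 changed sign. In type 1 the sign also changed without a single cell for Zfp606, at 1.73 without its highest P2 cell, and for Zfp655 and Tox3, at -0.24 and -0.10 without their highest P5 cells. The directions in type 2, and that of Tbpl1 in type 1, stayed when either cell was left out. Each cell label carries a number whose meaning the sources used here leave unsaid, and it is read here as a library set. The P2 cells share 1 such set, which holds no other age, so P2 and its set cannot be told apart.

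The 4 genes were held by overlapping but not matching cells. At least 1 of them was above 10 RPM in 31 of 34 P5 type 1 cells (91.2%, 76.3 to 98.1), in 7 of 19 type 2 cells (36.8%, 16.3 to 61.6) and in 6 of 22 type 3 cells (27.3%, 10.7 to 50.2). The share was 82.9% at E18 (68 of 82 cells), and at P2 it was 63.6% in type 1, 58.1% in type 2 and 30.8% in type 3. In P5 type 1, 16 cells held 1 gene, 9 held 2, 4 held 3 and 2 held all 4. The 15 cells with at least 2 genes compare with 17.7 from the product of the single shares. Of the other 41 P5 cells, 11 held 1 gene and 2 held 2. Cells with none of the genes were 3, 12 and 16 in P5 types 1 to 3, against 4.39, 11.9 and 15.8 from the product of the single shares. The genes were chosen by the P5 contrast and by their share of type 1 cells, so the P5 counts are a description.

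Of the 6 pairs of genes in P5 type 1, 3 were together in more cells than the product of their shares gives and 3 in fewer. Zfp606 and Tbpl1 were above 10 RPM together in 7 cells against 4.97 from the product of their shares, Zfp606 and Tox3 in 6 against 4.21, and Zfp655 and Tox3 in 4 against 5.50. Over the 34 cells, Pearson correlations of log2(RPM + 1) ranged from -0.20 for Zfp655 and Zfp606 to 0.28 for Zfp606 and Tbpl1. At E18 they ranged from -0.24 for Zfp606 and Tbpl1 to 0.27 for Zfp655 and Tbpl1, so the order of the pairs differed between the ages. Cells of a group share their pool and differ in depth, and such weak values in sparse counts are given as a description.

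**Figure D3:**
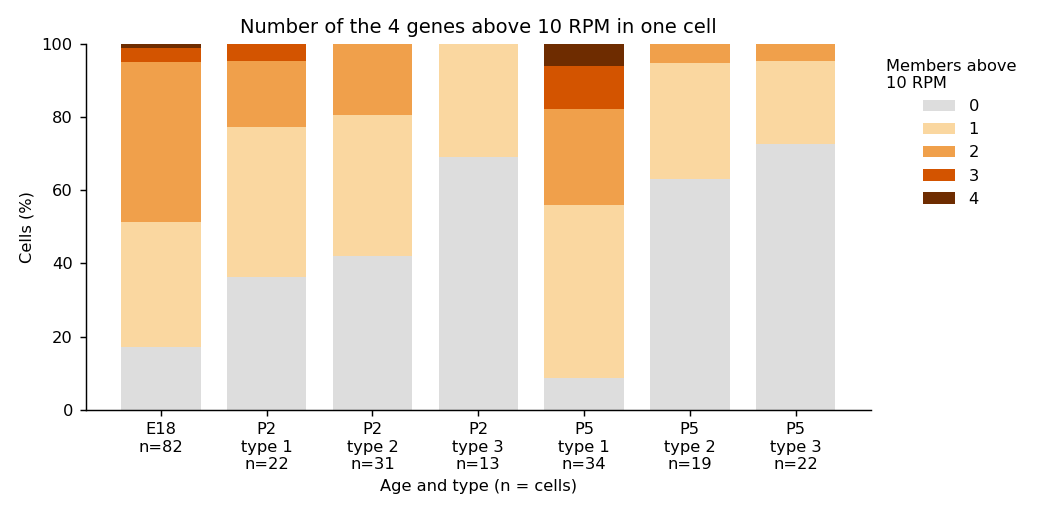
Percentage of cells with 0, 1, 2, 3 or 4 of the genes Zfp655, Zfp606, Tox3 and Tbpl1 above 10 RPM (stacked shades) by age and type, with the number of cells under each bar. None of the 4 genes was held by 3 of 34 P5 type 1 cells, 12 of 19 type 2 cells and 16 of 22 type 3 cells.

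The cell labels of E18 and P5 carry 3 further set numbers, called sets B, C and D here, each of which holds cells of both ages. P5 type 1 had 11, 11 and 12 cells in these sets, but the other P5 types had only 4, 6 and 31. Within every set each of the 4 genes was more abundant in P5 type 1 than in the other types, by log2 folds of at least 1.68. The sets are parts of the P5 cells whose contrast chose the genes, so their agreement is a description and no replication. Zfp655 had pooled levels of 166, 289 and 43 RPM in type 1 and 1.04, 0.420 and 12.7 RPM in the other types of sets B, C and D. Its fold of 1.68 in set D was the smallest of all, and in that set 4 of 12 type 1 cells and 2 of 31 other cells were above 10 RPM. Zfp606 had 21.4, 95.7 and 80.2 RPM in type 1 and 2.92, 4.42 and 1.52 RPM in the others. For Tox3 the levels were 66.3, 145 and 55.7 RPM against 0.809, 17.7 and 7.69 RPM. Tbpl1 had 65.3, 75.6 and 87.9 RPM against 0.861, 0 and 9.42 RPM, where the 0 comes from 6 cells.

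The comparison of P5 type 1 with E18 was less even over the sets. Tbpl1 kept log2 folds of 0.37, 0.35 and 0.28 in sets B, C and D. Zfp655 had 0.59, 1.85 and -1.37, Tox3 had -0.30, 3.97 and 0.52, and Zfp606 had -1.96, 3.57 and 2.21. Set C held only 9 E18 cells, in which Zfp606 and Tox3 had pooled levels of 7.16 and 8.30 RPM, and in set B a single E18 cell held 41.8% of the read pairs of Zfp606. Only Tbpl1 stayed within a log2 fold of 1 of its E18 level in every set. In P5 types 2 and 3 the pooled levels of all 4 genes were below those of E18 within sets B and D. Set C, with 3 cells of each of these types, differed in type 2, where Tox3 stood at 29.4 RPM against 8.30 at E18 and Zfp606 at 7.35 against 7.16, while the other levels there were below E18.

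**Figure D4:**
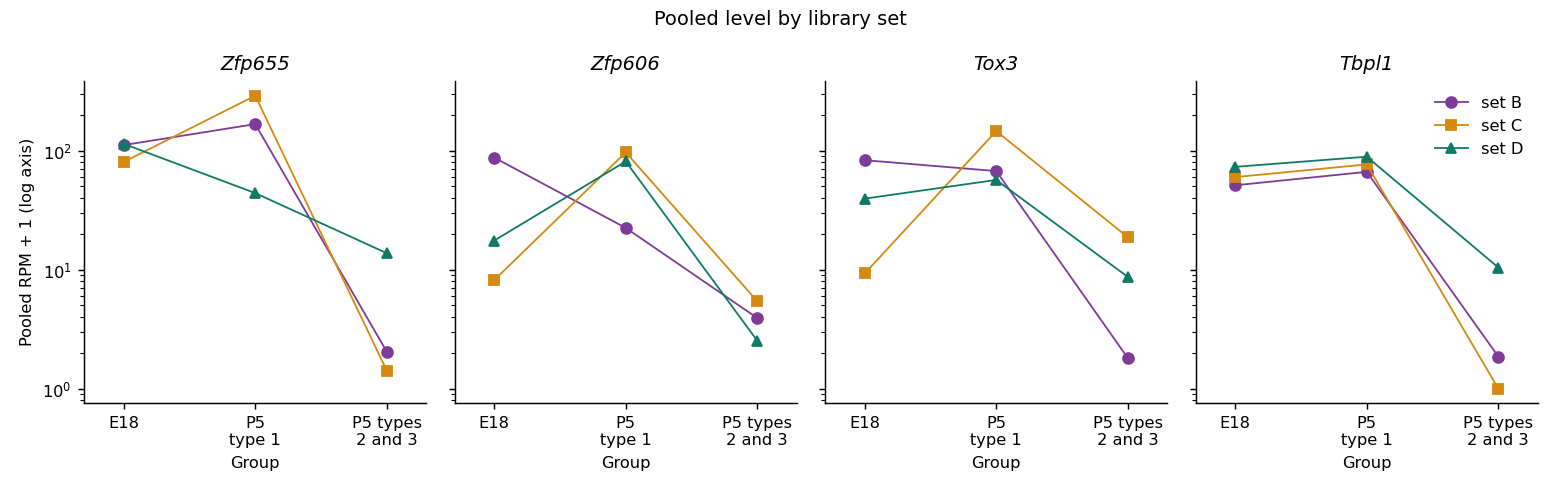
Pooled RPM + 1 (logarithmic axis) of each gene at E18, in P5 type 1 and in P5 types 2 and 3 together, with one line for each of the library sets B, C and D. In every set the P5 type 1 value stands above that of types 2 and 3, the contrast that chose the genes. E18 values of Zfp606 range from 7.16 to 86.4 RPM between sets.

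Relatives of the 4 genes were followed as whole families, with the share of all genes past the same fold for reading. Of the TOX family, Tox4, a widely expressed member, had pooled levels of 51.3, 43.2 and 10.5 RPM in P5 types 1 to 3 and 90.5 RPM at E18, with a log2 fold of type 1 over the others of 0.88. Tox, known for its part in lymphocyte development, had 59.8, 45.2 and 0.910 RPM, and a fold of 1.30. Tox2 was at 50.4 RPM at E18 with 16 of 82 cells above 10 RPM, but at 0.228, 0.0108 and 8.78 RPM in P5 types 1 to 3. Pooled over the library sets described above, Tox3 was thus the only TOX gene with a higher level in P5 type 1 than at E18, at a log2 fold of 0.52, although in set B that fold was -0.30. In P2 type 1, Tox, Tox2, Tox3 and Tox4 were at 0.701, 0.00452, 66.7 and 40.9 RPM, against 88.1, 50.4, 61.5 and 90.5 RPM at E18.

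Of the TBP family, Tbp itself, the subunit of TFIID that binds the TATA box, was at 63.7, 33.4 and 28.8 RPM in P5 types 1 to 3 and at 75.6 RPM at E18, with a log2 fold of 1.01 for type 1. Tbpl2, which is known from oocytes, had a count of 0 in every cell of the series. In P2 type 1, Tbp was at 74.1 RPM, against 75.6 RPM at E18, and Tbpl1 was at 3.14 RPM, against 57.7 RPM at E18. Of 25 core promoter factors (TFIIA, TFIIB and the TAFs), 18 were tested in P5 type 1 against the other types, of which 7 were higher and 1 lower, with a median log2 fold of 0.63 where the median of all genes was 0.04 and 23.6% of genes were higher and 23.7% lower. At P2, 4 of 16 were higher and 5 lower, with a median of -0.12, where 19.4% of all genes were higher and 31.9% lower. Highest at P5 among those widely present in type 1 were Taf7, a TFIID subunit, at 2.56, and Gtf2a1 and Gtf2a2, the subunits of TFIIA that Tbpl1 binds, at 1.61 and 1.07. At P2 these folds were 0.87 for Taf7, -0.04 for Gtf2a1 and -1.57 for Gtf2a2. Taf1, Taf6 and Taf3 stood at 0.42, 0.16 and -0.55 at P5 and at 0.93, 1.55 and 0.65 at P2.

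Zinc finger genes named Zfp and a number were 373, of which 198 were tested at P5. In type 1, 74 of these were higher and 39 lower than in the other types, with a median of 0.45. Without Zfp655 and Zfp606 the counts were 72 and 39 of 196, or a median of 0.41, where 23.6% of all genes were higher and 23.7% lower. Zfp292 came next with 2.55, and Zfp9, Zfp637 and Zfp329 were lowest among those widely present, with -1.57, -1.13 and -1.05. The folds of type 1 at P2 were 0.71 for Zfp292, 0.38 for Zfp9, 2.91 for Zfp637 and 3.57 for Zfp329. Against E18, 33 zinc finger genes of 213 were higher and 66 lower in P5 type 1, with a median of -0.26. In type 2 the counts were 25 higher and 101 lower of 208 with a median of -0.89, and in type 3 they were 16 and 126 of 202 with -1.64. The medians of all genes in these comparisons were -0.24, -0.21 and -0.98, with 13.4%, 15.7% and 11.6% of all genes higher and 27.8%, 27.5% and 49.6% lower.

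Known partners of these proteins were counted in the same way. Of 16 KRAB corepressor partners, 15 were tested in P5 type 1 against the other types, and 3 were higher and 1 lower, a share of higher genes no larger than the 23.6% of all genes. Dnmt1, the maintenance DNA methyltransferase, had a log2 fold of 2.65, and the histone deacetylases Hdac1 and Hdac2 had 1.69 and 1.34. Atf7ip, Dnmt3a and Cbx1 stood at 0.29, -0.07 and -0.32. At P2 these folds were -0.27 for Dnmt1, -0.70 for Hdac1, 0.14 for Hdac2, 1.76 for Atf7ip, 0.23 for Dnmt3a and 0.19 for Cbx1. Of 10 CREB coactivator partners of Tox3, 9 were tested, with 1 higher and 2 lower, both shares under those of all genes (23.6% and 23.7%). Creb1 and Crebbp stood at 0.94 and 0.55, and Ep300, a histone acetyltransferase related to Crebbp, was lower with -1.31. The factors of types 2 and 3 that the study names, Prox1, Nr2f2, Npas3 and Maf, were lower in P5 type 1 by log2 folds between -3.12 and -1.75, a list that was chosen on these cells. Of the type 1 factors of the study, Meis2 was higher by 2.83, Sp8 by 2.34 and Etv1 by 2.12.

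Genes whose levels followed those of a member were sought over the 7 groups, as the Pearson correlation of log2(pooled RPM + 1) among 5644 genes that at least 25% of a group's cells held beyond 10 RPM. With 7 points and so many genes these are a description. Zfp606 was nearest to Gtf2b (r = 0.999), which encodes TFIIB, then to Ppil4 (0.988) and Pik3r2 (0.987), a regulatory subunit of phosphoinositide 3-kinase. Gtf2b was at 43.9 RPM at E18, at 58.2, 33.5 and 0 RPM in P2 types 1 to 3 and at 46.4, 1.67 and 0.927 RPM in P5 types 1 to 3. Tbpl1 was nearest to Smarcd1 (0.989), a subunit of the BAF chromatin remodeller, Zfx (0.962), an X-linked zinc finger factor, and Tbc1d15 (0.953). Zfp655 was nearest to Nup155 (0.948), a nucleoporin, and Tmem47 (0.926). Tox3 was nearest to Syne2 (0.936), a nuclear envelope protein, Kdm4a (0.932), a histone demethylase, and Ntm (0.928), an adhesion molecule. Within cells the likeness was weaker. Zfp606 and Gtf2b were above 10 RPM together in 3 of 34 P5 type 1 cells, against 1.91 from the product of their shares, with a correlation of 0.13 over these cells. Tbpl1 and Zfx were together in 6 of these cells against 3.44. Tbpl1 and Smarcd1 were together in 6 against 6.12, with a correlation of 0.0027, and Tox3 and Kdm4a in 2 against 2.26. At E18 Zfp606 and Ppil4 were together in 4 of 82 cells, fewer than the 7.67 from their shares. Over the pairs named here the correlation within P5 type 1 cells ranged from -0.13 to 0.28.

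Of the 41 P5 cells of types 2 and 3, 13 held at least 1 of the 4 genes. These were 4 of the 8 cells with Meis2 above 10 RPM and 9 of the 33 without. In P5 type 2, where Meis2 was above 10 RPM in 7 of 19 cells, Tox3 was above 10 RPM in 3 of those 7 and in 2 of the other 12, and Zfp655 in 0 of either. Astrocyte or radial glia markers (Gfap, Aldoc, Slc1a3, Aqp4, Fabp7) were above 10 RPM, at least 3 of 5, in 3 type 2 cells and in no other P5 cell, and 2 of these 3 held a member. Their summed pooled level was 1609 RPM in type 2, 211 in type 1 and 76.7 in type 3. Without these 3 cells the log2 folds of P5 type 1 were 3.82 for Zfp655, 4.35 for Zfp606, 3.41 for Tox3 and 3.30 for Tbpl1.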

How the data were processed

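Single Htr3a-GFP+ INs of E18, P2 and P5 cortex were sequenced as read pairs, 223 in all. The authors aligned them to GRCm38 with TopHat2, counted them per gene with HTSeq 0.6.1 (per the labels and methods) and deposited raw counts for 43629 genes without normalization, with a scaling coefficient for every cell. RPM was that coefficient multiplied by the count. Counts on genes ranged from 1596087 to 11692823 per cell. Strand use and molecular identifiers were not given in the sources used here. A symbol was found for 42462 identifiers, and the rest hold 0.313% of counts. Since the coefficient scales to all mapped read pairs, RPM also moves with the share of read pairs that fall outside genes.

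Groups follow the age and assigned subgroup in the labels. Each age was taken as 1 sample, so pooled values, shares and folds are descriptive, with 1 RPM added to both sides and called at a log2 fold of 1. Doublets were not called here. The members, the gene lists and the way results are read were chosen with earlier results of these data known, and the promoter motifs after the sequences were seen. Named genes are the members, the TOX and TBP families, up to 3 highest and 3 lowest genes by P5 fold of each longer list among those that 25% or more of P5 type 1 cells held beyond 10 RPM, the study's named factors, the 3 factors that follow the members by fold, Runx1t1, named after its value was seen, and the 3 genes most like each member over 7 groups. Some genes that meet this rule are not reported here. Lists of markers of microglia, the oligodendrocyte lineage, endothelial cells, erythrocytes and the cell cycle were also counted. At least 3 of their markers were above 10 RPM in 1 P5 type 2 cell (oligodendrocyte lineage), in 1 E18 cell (cell cycle) and in 0 other cells of E18 and P5. Promoters came from RefSeq (GRCm38.p6) and gene spans from a GRCm38 annotation that may differ from the one the authors counted on.

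Alternatives changed the pseudocount, the library size (counts on genes, edgeR TMM factors, DESeq2 size factors), the scale, single cells, library sets, the threshold, the depth by thinning and the gene filter. The fold step was tested on simulated data. Statistics used R 4.3.3 with DESeq2 1.42.0 and edgeR 4.0.16, and Python 3.11.15 with scipy 1.17.1, numpy 2.4.6 and pandas 2.3.3. Figures used matplotlib 3.10.9.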

Additional observations from a re-analysis of the deposited data

Results flagged for a closer look

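Tbpl1 differed in direction between ages. At P2 its log2 fold of type 1 over the remaining types was -3.49, and at P5 3.26, a difference of 6.75, with 1 of 22 and 13 of 34 type 1 cells above 10 RPM. From P2 to P5 its level was higher by 4.23 in type 1 and lower by -3.60 in type 2 and -2.39 in type 3, so the change in type 1 differed by 7.82 and 6.62 from those of types 2 and 3. The P2 level of Tbpl1 in type 3 came from 1 of 13 cells, at 839 RPM, and 2 of 22 cells were above 10 RPM at P5. Without that P2 cell the change in type 3 was 3.71 and its difference from type 1 was 0.52. Tox3 changed by 3.48 from P2 to P5 in type 2 and by -1.26 in type 3, a difference of 4.74, where the highest P5 type 2 cell reached 75.6 RPM and 1 P2 type 3 cell at 137 RPM held 91.4% of the read pairs of its group. Without that P2 cell the change in type 3 was 1.50 and the difference 1.98. Each age was taken as 1 sample and its types are subsets of it, and the differences were not tested.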

How the results depend on the processing

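Values are given in the order Zfp655, Zfp606, Tox3 and Tbpl1. The log2 fold of P5 type 1 over the other types stayed above 1 for all 4 genes under all 12 alternatives, between 1.45 and 7.67. This contrast chose the genes and the alternatives reuse the same P5 counts, so the values are no independent support for it. It was 4.06, 4.92, 3.38 and 3.41 with 0.1 RPM added and 3.13, 2.66, 2.42 and 2.34 with 10 RPM added. Scaled by counts on genes it was 3.79, 4.49, 3.11 and 3.13, by TMM factors 4.03, 4.71, 3.35 and 3.37, and by DESeq2 size factors 4.06, 4.73, 3.38 and 3.40. As a difference in the mean of log2(RPM + 1) over cells it was 3.23, 2.27, 1.45 and 2.19. Without the highest type 1 cell the values were 3.46, 4.09, 2.74 and 3.01, and without the top cell among the other types 5.61, 4.79, 3.56 and 4.79. Set B alone gave 6.35, 2.52, 5.22 and 5.16, set C 7.67, 4.16, 2.96 and 6.18, and set D 1.68, 5.01, 2.71 and 3.09. In set C the other types had no read pair of Tbpl1, and its value is a lower bound computed against 3 counts over the group. Leaving out P5 cells with at least 3 astrocyte or radial glia markers, an alternative chosen after seeing the data, gave 3.82, 4.35, 3.41 and 3.30. 

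At P2 the same fold was 1.25, 1.30, 4.19 and -3.82 with 0.1 RPM added, 1.13, 1.06, 2.50 and -2.08 with 10 RPM, 1.31, 1.35, 4.11 and -3.60 by counts on genes, 1.47, 1.51, 4.26 and -3.45 by TMM factors and 1.47, 1.51, 4.25 and -3.44 by DESeq2 size factors. Before 1 RPM is added, TMM and DESeq2 factors raise every P2 fold by 0.23 relative to mapped read pairs, and counts on genes shift every P5 fold by -0.21. After it is added the shift differs by gene, and the P5 fold of Zfp606 rose from 4.44 to 4.49 by counts on genes. It was 1.85, 0.27, 1.26 and -0.99 over the mean of cells. Without the highest type 1 cell the values were 0.996, -0.57, 3.09 and -5.07, where Zfp606 changed sign, and without the top cell among the other types 1.78, 1.84, 5.68 and -2.97. Against E18, P5 type 1 had 0.59, -1.96, -0.30 and 0.37 in set B, 1.85, 3.57, 3.97 and 0.35 in set C and -1.37, 2.21, 0.52 and 0.28 in set D. The next pair of alternatives was chosen after seeing the data. Without E18 cells holding at least 3 MGE or 3 excitatory markers the values were 0.97, 0.022, 0.14 and 0.11, and without the highest cell of each side 0.27, 0.51, 0.39 and 0.33. The percentage of P5 type 1 cells was 67.6, 67.6, 50 and 61.8 for at least 1 read pair, 44.1, 26.5, 26.5 and 26.5 above 50 RPM and 50, 38.2, 32.4 and 35.3 after thinning each cell to 1596087 counts on genes. Without the filter on low genes the percentages of genes past the fold were 7.64, 6.81, 5.11, 11.1, 10.8, 16.2 and 14.1, in the order P5 type 1 higher, P2 type 1 higher, P5 type 1 higher and lower than E18, and P5 type 2, P5 type 3 and P2 type 1 lower than E18.

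The cause of these shifts was not tested. Each age was taken as 1 sample, and with 13 to 34 cells per type a single cell can hold most read pairs of a gene. Chosen after seeing the data as well, the log2 fold of P5 against P2 in type 3 was 1.50 for Tox3 and 3.71 for Tbpl1 without the highest P2 cell, where both changed sign. No paired analysis was made, since each age was taken as 1 sample and no test was run. Sets B, C and D each hold E18 cells and P5 cells of type 1 and of the other types, and the folds within each set are given above. Within each set the dissociation still differed between E18 and P5. The P2 set holds no other age.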
